A study of Homo sapiens with 6 samples.

Results

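The laminin chains were examined by RNA-Seq in U87, an established cell line from a human glioblastoma. They are 9 genes, taken by name from the deposited table of 60671 genes: the alpha chains LAMA1, LAMA2, LAMA3, LAMA4 and LAMA5, the beta chains LAMB1, LAMB2 and LAMB3, and the gamma chain LAMC1. The rutaecarpine group (n = 3) received 100 μM rutaecarpine, an alkaloid of Evodia rutaecarpa that activates the aryl hydrocarbon receptor (AhR), for 48 h. The control group (n = 3) received the solvent for 48 h, and 0.1% DMSO in serum-free medium was common to both groups. The study asked which migration-related genes respond to rutaecarpine in these cells. All libraries come from 1 cell line, and the labels do not say whether the replicates were separate cultures, so the p values measure the spread between these libraries, which may be technical.

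Laminins are the main cell-adhesive glycoproteins of the basement membrane. Each molecule is a cross-shaped trimer of an alpha, a beta and a gamma chain, and the trimer is assembled inside the cell before it is secreted. The alpha chain carries the globular domains at its end that integrins and dystroglycan bind, so the choice of alpha chain sets which receptors a laminin engages. LAMA4 encodes a short alpha chain known from the basement membranes of blood vessels, muscle and nerve, and laminins with this chain have been described in gliomas. LAMA5 encodes the widespread long alpha chain, LAMA1 the chain typical of embryonic basement membrane, LAMA2 that of muscle and Schwann cells, and LAMA3 that of epithelia.

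The values are TPM, a level per transcript length within a fixed library total, so the levels of different chains can be set side by side. They carry no read depth, so the precision from counting is unknown. The 14377 genes that reached 1 TPM in 3 or more libraries were compared between the groups with limma on log2(TPM + 1), with p values adjusted over all of them by the Benjamini-Hochberg method. All 9 laminin chains passed this filter. A gene was called when its adjusted p was no higher than 0.05, and a called gene with a log2 fold change beyond 1 or -1 was a DEG. SE stands for the standard error of a log2 fold change. The third control library differed from the rest, with a median log2(TPM + 1) of 3.56 over the tested genes against 3.81 to 4.00 in the other 5 libraries. Values without it are given beside the results that it moved. Of 7 glial and mesenchymal markers, 6 had at least 1 TPM in every library. VIM, FN1 and CD44 were high, GFAP had 3.48 to 5.41 TPM and the stem cell factor SOX2 at most 0.06 TPM. The list moved both ways, with 3 members called lower (VIM, FN1 and NES) and 1, the glial factor OLIG2, called higher (1.48 to 1.73 TPM in the control libraries and 3.07 to 4.11 TPM after rutaecarpine), while CD44 and GFAP were not called. Its sum, carried mostly by VIM and FN1, was 12429 to 15137 TPM in the control libraries and 8604 to 9281 TPM after rutaecarpine. The part of these differences in the laminin values was not tested. The epithelial and endothelial marker lists summed to no more than 2.2 TPM in any library. Of the immune markers PTPRC and CD14 were at most 0.54 TPM, while the lysosomal protein CD68 had 452 to 511 TPM in the control libraries and 319 to 357 TPM after rutaecarpine.

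Of the 9 laminin chains, LAMA4 fell after rutaecarpine and was the only DEG among them. The other 8 were not called with all 6 libraries. As background, 1.5% of the tested genes were DEGs with a lower level and 2.01% were DEGs with a higher level. With no limit on the fold change, 4.68% of the tested genes were called lower and 4.6% higher. There were 289 higher and 216 lower DEGs, and 251 higher and 295 lower when the libraries were first centred on their medians, with LAMA4 the only laminin DEG in either case. The log2 fold change was below 0 for 8 of the 9 chains, with a median of -0.31, against a median of 0.08 over all tested genes, of which 5847 of 14377 were below 0. In these bulk libraries, fewer cells that express a chain and less RNA per cell cannot be told apart.

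**Figure D1:**
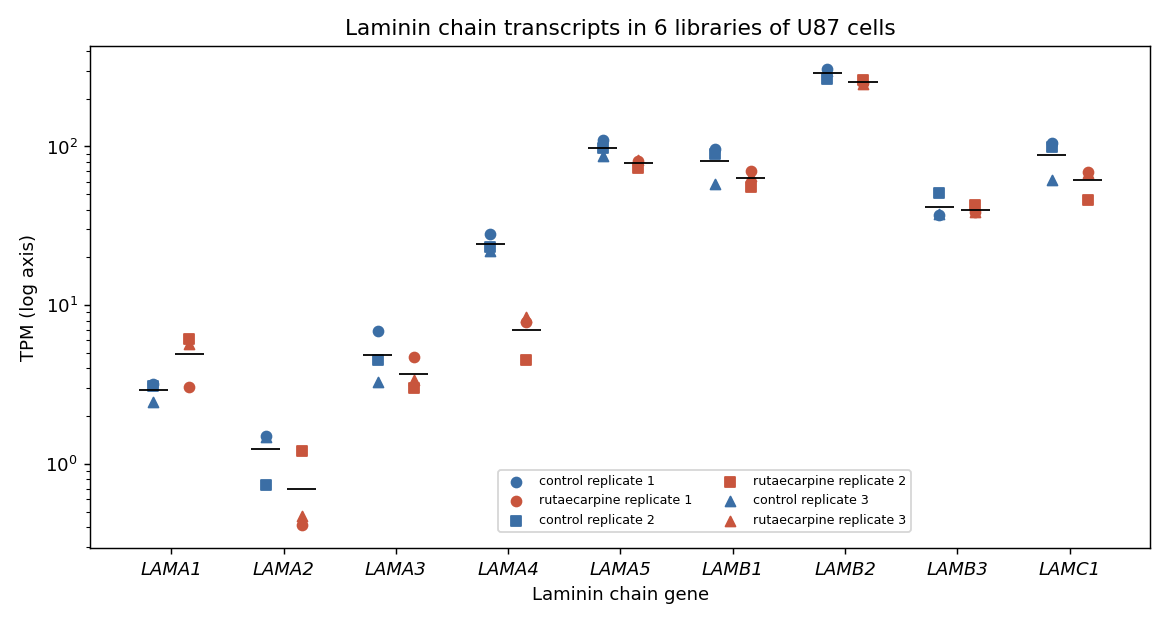
TPM of the 9 laminin chain genes in each of the 3 control (blue) and 3 rutaecarpine (red) libraries, on a log axis, with the marker shape giving the replicate number and the black lines the group means. LAMA4 lies between 21.81 and 28.07 TPM in the control libraries and between 4.53 and 8.42 TPM after rutaecarpine.

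LAMA4 (ENSG00000112769) is a minus-strand gene of chromosome 6 (GRCh38, GENCODE release 29, 112108760 to 112254939), and its longest basic transcript has 39 exons. Its TPM was 28.07, 23.13 and 21.81 in control replicates 1, 2 and 3, and 7.85, 4.53 and 8.42 in rutaecarpine replicates 1, 2 and 3. Every rutaecarpine library thus lay far below every control library. The control mean was 24.3 ± 3.30 TPM and the rutaecarpine mean 6.93 ± 2.10 TPM (each SD, n = 3), which is 28.5% of the control level. The log2 fold change was -1.71 (SE 0.23, limma adjusted p = 0.00562). Dropping any single library left it between -1.85 and -1.46, and LAMA4 remained a DEG in each of those fits. Without control replicate 3 the log2 fold change was -1.78. The genes annotated across the LAMA4 span on either strand reached at most 0.25 TPM.

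The sequence near the start of LAMA4 is shown beside those of LAMA5, LAMB1 and LAMC1, 3 more abundant chains. The windows are the 250 bases before the RefSeq start of each gene on GRCh38.p14, 5′ to 3′ on the strand of the gene, and only the longest stretch outside the exons that GENCODE release 29 gives for that gene is printed. For LAMA4 this leaves the 63 bases of chr6:112254723-112254785, because 187 bases of the window lie in exons of other LAMA4 transcripts, and for LAMB1 it leaves the 156 bases of chr7:108003256-108003411. LAMA5 (chr20:62367313-62367562) and LAMC1 (chr1:183023170-183023419) are printed whole. LAMC1 is on the plus strand and the other genes are on the minus strand. The whole LAMA4 window lies inside the span that GENCODE gives for that gene. The printed bases of LAMA5, LAMB1 and LAMC1 lie before the spans of their genes, so the LAMA4 sequence is not of the same kind. Capitals mark the GC box, GGGCGG or its reverse complement CCGCCC.
LAMA4: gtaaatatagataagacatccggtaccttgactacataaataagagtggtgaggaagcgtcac
LAMA5: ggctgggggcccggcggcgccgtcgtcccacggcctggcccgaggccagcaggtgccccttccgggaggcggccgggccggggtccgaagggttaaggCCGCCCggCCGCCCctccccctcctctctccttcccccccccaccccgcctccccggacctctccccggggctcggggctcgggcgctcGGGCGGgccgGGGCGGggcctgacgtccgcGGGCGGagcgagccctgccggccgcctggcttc
LAMB1: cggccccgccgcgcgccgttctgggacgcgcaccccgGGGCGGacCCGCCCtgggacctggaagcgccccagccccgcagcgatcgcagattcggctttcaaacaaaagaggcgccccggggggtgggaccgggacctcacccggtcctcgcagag
LAMC1: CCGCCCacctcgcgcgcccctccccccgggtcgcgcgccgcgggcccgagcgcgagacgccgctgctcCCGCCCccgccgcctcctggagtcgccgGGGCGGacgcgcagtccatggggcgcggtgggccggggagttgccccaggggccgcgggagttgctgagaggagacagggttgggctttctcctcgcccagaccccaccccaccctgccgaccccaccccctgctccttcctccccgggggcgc

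The whole LAMA4 window is 48.4% G or C and holds no GC box. The windows of LAMA5, LAMB1 and LAMC1 are 82.8%, 70.4% and 79.6% G or C, against a median of 58.0% over the 35116 promoter windows of the RefSeq table. These are the highest among the laminin windows. Those of LAMB2, LAMA3 and LAMA2 are 58.4%, 60.4% and 53.2% G or C, and the LAMB3 windows 54.0% to 64.0%. A GC box was found in 8 of the 10 windows of the 8 laminin chains that have one there, and in 42.6% of all windows. LAMA2 and LAMA4 were the chains without it, and LAMA1 had no entry. The AhR response element that the study searched, CACGCNA or TNGCGTG, was found in 0 of the 10 laminin windows and in 4.52% of all windows. Its core GCGTG or CACGC, which lies inside that element, was found in the LAMA2 window alone and in 32.2% of all windows. The TATA box, TATAAA or TTTATA, was in none of the laminin windows and in 10.7% of all. The study searched a longer stretch upstream of each coding sequence, so its search was not repeated with these windows of 250 bases. These are counts of letters in short windows and say nothing of binding.

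LAMA5, the most abundant alpha chain, was called lower only in some of the fits, among them the one without control replicate 3. LAMA5 (ENSG00000130702; chromosome 20, 62307955 to 62367312, minus strand) had 109.75, 97.22 and 86.67 TPM in the control libraries and 80.59, 72.9 and 81.73 TPM in the rutaecarpine libraries, in the order of their replicate numbers. The groups did not overlap, with means of 97.9 ± 11.6 and 78.4 ± 4.8 TPM (SD, n = 3). The log2 fold change was -0.31 (SE 0.11) and did not pass the test (limma adjusted p = 0.137). Without control replicate 3 it was -0.40, with an adjusted p of 0.0206 from limma. The 3 rutaecarpine libraries lay below all 3 control libraries for LAMA4, LAMA5 and LAMB2, which is 3 of the 9 chains, against 14.0% of all tested genes. The ADRM1 gene, at 174 to 218 TPM, overlaps the LAMA5 span by 908 bases on the opposite strand, and whether the counting used strand is not given in the sources used here.

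LAMA1, LAMA2 and LAMA3 were weakly expressed, and none passed the test. LAMA1 (ENSG00000101680; chromosome 18, 6941744 to 7117814, minus strand) had a TPM of 3.18, 3.11 and 2.47 in the control libraries and of 3.07, 6.10 and 5.67 in the rutaecarpine libraries. With all 6 libraries it was the only chain above 0 in log2 fold change, at 0.56 (SE 0.25, limma adjusted p = 0.223), and rutaecarpine replicate 1 lay within the control range. LAMA3 (ENSG00000053747; chromosome 18, 23689443 to 23956222, plus strand) had a TPM of 6.88, 4.53 and 3.26 in the control libraries and of 4.73, 2.99 and 3.36 in the rutaecarpine libraries. Its groups overlapped, with a log2 fold change of -0.30 (SE 0.27, limma adjusted p = 0.537). The value was -0.07 without control replicate 1, -0.19 without rutaecarpine replicate 2, -0.45 without rutaecarpine replicate 1 and -0.51 without control replicate 3, and LAMA3 was called in none of these fits. LAMA2 (ENSG00000196569; chromosome 6, 128883141 to 129516569, plus strand) had a TPM of 1.5, 0.74 and 1.47 in the control libraries and of 0.41, 1.21 and 0.47 in the rutaecarpine libraries. It lay close to the filter, and its log2 fold change of -0.41 (SE 0.25) had an adjusted p of 0.373 from limma.

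The share of each alpha chain in the summed alpha chain TPM was also computed within each library. These shares do not depend on how the libraries are scaled to each other. LAMA4 made up 18.8%, 18.0% and 18.9% of the alpha chain transcripts in control replicates 1, 2 and 3, and 8.12%, 5.16% and 8.45% in rutaecarpine replicates 1, 2 and 3. Control replicate 3 did not stand apart in this measure. The LAMA5 share was 73.5%, 75.5% and 74.9% in the control libraries and 83.4%, 83.1% and 82.0% after rutaecarpine. The LAMA1 share was 2.13%, 2.42% and 2.14% in the control libraries and 3.18%, 6.95% and 5.69% after rutaecarpine. LAMA3 and LAMA2 kept overlapping shares, with LAMA3 between 2.82% and 4.89% over the 6 libraries and LAMA2 between 0.424% and 1.38%. The summed alpha chain level was 131 ± 17 TPM (SD, n = 3) in the control group and 94.7 ± 6.20 TPM (SD, n = 3) after rutaecarpine. With each library left out in turn, the LAMA4 share was lower after rutaecarpine by 10.3 to 11.9 percentage points. The shares are given as a description, with no test.

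**Figure D2:**
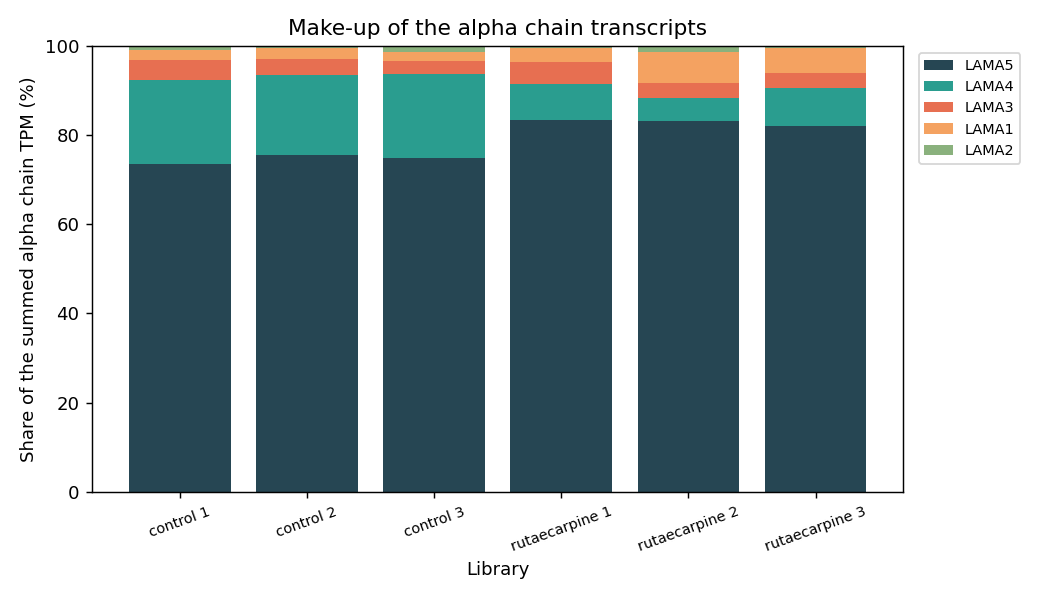
Share of each alpha chain gene in the summed alpha chain TPM (%, stacked from 0 to 100) in each library. The LAMA4 segment is 18.0% to 18.9% in the 3 control libraries and 5.16% to 8.45% in the 3 rutaecarpine libraries, and LAMA5 is the largest segment in all 6.

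Among the beta chains, LAMB2 was the most abundant laminin transcript of all and was not called. LAMB2 (ENSG00000172037; chromosome 3, 49121114 to 49133118, minus strand), which replaces the beta 1 chain in laminins of synapses, vessels and kidney, had 308.7, 265.17 and 297.44 TPM in the control libraries. After rutaecarpine its TPM was 252.81, 264.04 and 246.71. The highest rutaecarpine library lay just below the lowest control library, and the log2 fold change of -0.19 (SE 0.08) did not pass the test (limma adjusted p = 0.225). LAMB2 lay above 96.7% of the tested genes in mean TPM.

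LAMB1 (ENSG00000091136; chromosome 7, 107923799 to 108003255, minus strand), the beta chain of most early basement membranes, had 95.85, 89.72 and 58.04 TPM in the control libraries and 69.85, 55.84 and 65.49 TPM in the rutaecarpine libraries. Control replicate 3 lay among the rutaecarpine libraries, while control replicates 1 and 2 lay above all of them. With all libraries the log2 fold change was -0.32 (SE 0.20, limma adjusted p = 0.376). Without control replicate 3 it was -0.54 (SE 0.10, limma adjusted p = 0.0127), so LAMB1 was then called, below the fold limit for a DEG. Without control replicate 1 it was -0.18 (limma adjusted p = 0.610). The DLD gene, at 53.4 to 91.0 TPM, overlaps the LAMB1 span by 7932 bases on the opposite strand. LAMB3 (ENSG00000196878; chromosome 1, 209614870 to 209652466, minus strand), a beta chain of epithelial laminin, had a TPM of 36.88, 51 and 37.65 in the control libraries and of 38.43, 42.59 and 38.45 in the rutaecarpine libraries. Its groups overlapped, and its log2 fold change of -0.06 (SE 0.14, limma adjusted p = 0.839) turned to 0.092 without control replicate 2.

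LAMC1 (ENSG00000135862; chromosome 1, 183023460 to 183145592, plus strand) encodes the gamma chain that most laminin trimers share. Its TPM was 104.78, 99.54 and 61.47 in control replicates 1, 2 and 3, and 69.32, 45.97 and 68.02 in rutaecarpine replicates 1, 2 and 3. As with LAMB1, control replicate 3 alone lay among the rutaecarpine libraries. The log2 fold change was -0.51 (SE 0.24, limma adjusted p = 0.253), and -0.76 without control replicate 3 (SE 0.17, limma adjusted p = 0.0230). Without rutaecarpine replicate 2, the lowest library, it was -0.32 (limma adjusted p = 0.487). The gamma chain gene LAMC3 had at most 0.01 TPM and the beta chain gene LAMB4 at most 0.13 TPM in any library, so neither entered the test.

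LAMB1 and LAMC1 were also the members that stood lowest in control replicate 3, together with LAMA3. On the log2(TPM + 1) scale, control replicate 3 lay below the mean of the other controls by a difference of -0.72 for LAMC1, -0.67 for LAMB1 and -0.63 for LAMA3, where the median of all tested genes was -0.24. The difference was -0.22 for LAMA4, -0.25 for LAMA5, -0.20 for LAMB3 and 0.06 for LAMB2. The reference transcripts of LAMC1 and LAMB1 are 48.7% and 49.5% G or C and those of LAMA5, LAMB2 and LAMB3 are 66.4%, 60.3% and 58.9%, and that of LAMA4 is 46.6%. LAMA2, at 46.5% G or C and close to the filter, and LAMA1, at 50.9%, had differences of 0.24 and -0.26 in control replicate 3. The reference transcripts of the 9 chains have 4305 to 11426 bases, against a median of 3010 over the tested genes. Across genes, the deviation of control replicate 3 from the library mean had a correlation of -0.39 with log2 transcript length. In the other libraries the correlation was -0.09 to 0.19. The part of GC content or length in these differences was not tested. When the trend of each library on transcript length and GC content was removed, 4 of the 9 chains were called lower, LAMA4, LAMA5, LAMB1 and LAMC1, against 10.9% of all tested genes. The log2 fold changes in that fit were -1.83 for LAMA4, -0.39 for LAMA5, -0.43 for LAMB1 and -0.64 for LAMC1. The same 4 chains were called lower without control replicate 3, where 10.3% of all tested genes were called lower, and with libraries weighted by their spread, where 14.1% were. LAMA4 alone passed the fold limit in these 3 fits.

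**Figure D3:**
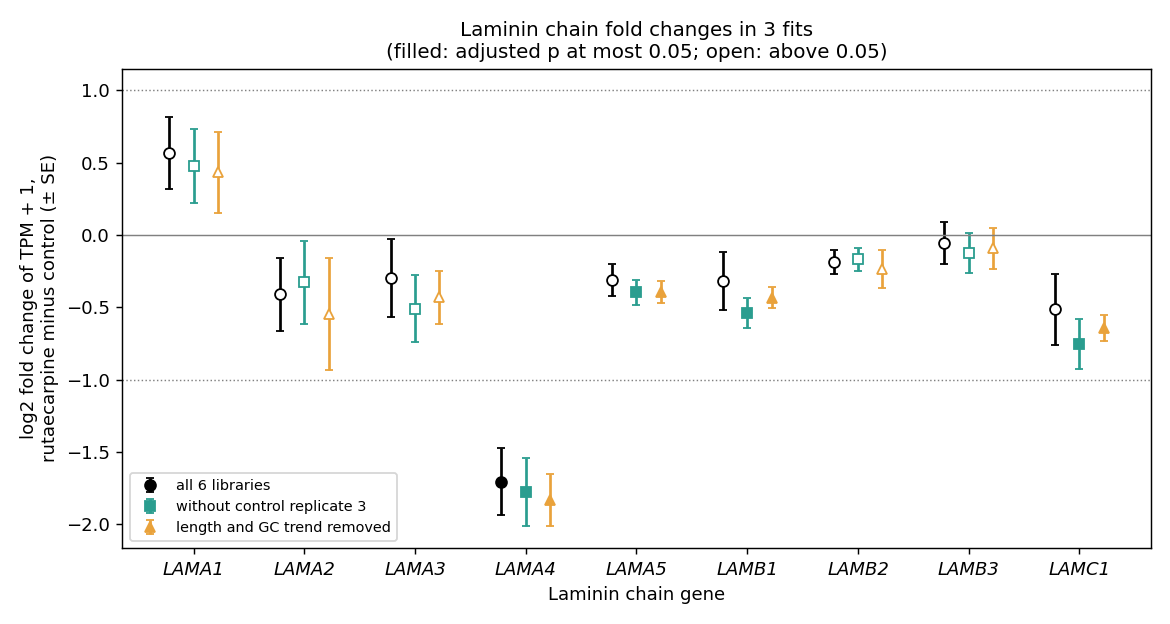
Log2 fold change of TPM + 1 (rutaecarpine minus control, ± standard error) of the 9 chains with all 6 libraries (circles), without control replicate 3 (squares) and with the length and GC trend removed (triangles), with filled symbols for an adjusted p of at most 0.05 and dotted lines at 1 and -1. LAMA4 is filled and below -1 in all 3 fits, and LAMA5, LAMB1 and LAMC1 are open with all libraries and filled in the other fits.

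The level of each chain was also set against LAMC1 in the same library, since a trimer needs 1 chain of each kind. The LAMA4 TPM was 0.268, 0.232 and 0.355 times that of LAMC1 in control replicates 1, 2 and 3, and 0.113, 0.0985 and 0.124 times that of LAMC1 in rutaecarpine replicates 1, 2 and 3. The groups did not overlap, so LAMA4 was lower in each rutaecarpine library also relative to its partner chain. The mean log2 ratio was lower by a difference of -1.33, with a two-sided exact permutation p of 0.1, which is the smallest p that 3 libraries against 3 can give. Without control replicate 3 the difference was -1.16.

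LAMB1 was 0.901 to 0.944 times the LAMC1 TPM in the control group and 0.963 to 1.21 times after rutaecarpine, so every rutaecarpine ratio lay above every control ratio. LAMA5 ranged from 0.977 to 1.41 times the LAMC1 TPM in the control group and from 1.16 to 1.59 after rutaecarpine, and these ranges overlapped. LAMA1 ranged from 0.0303 to 0.0402 times the LAMC1 TPM in the control libraries and from 0.0443 to 0.133 times after rutaecarpine, with no overlap. The ratios of LAMA2, LAMA3, LAMB2 and LAMB3 to LAMC1 overlapped between the groups.

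**Figure D4:**
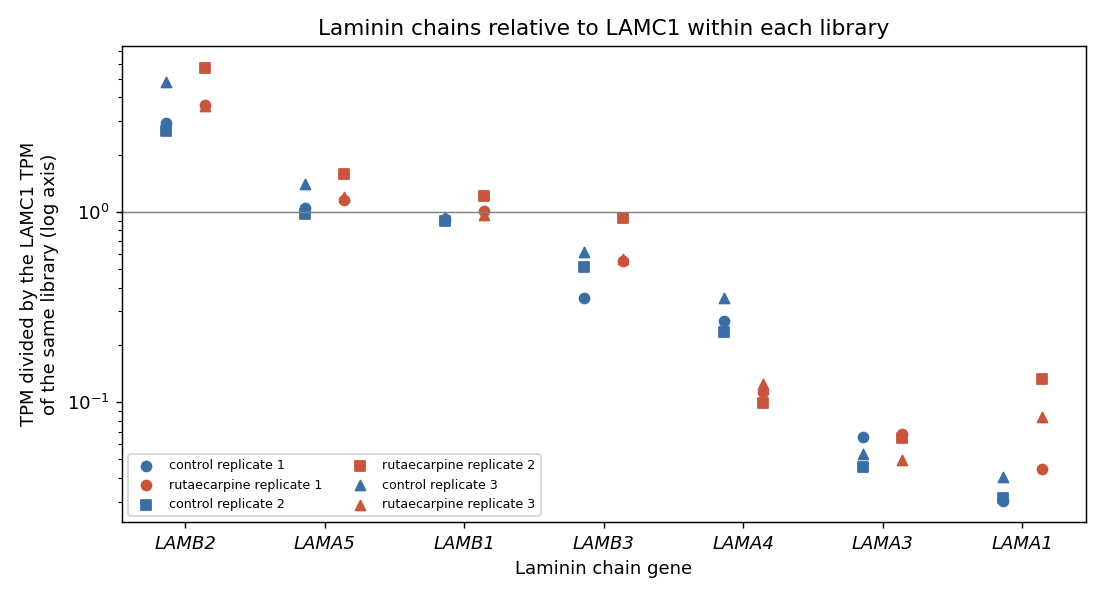
TPM of 7 laminin chain genes divided by the LAMC1 TPM of the same library (log axis) in the control (blue) and rutaecarpine (red) libraries, with the marker shape giving the replicate number. LAMA4 lies between 0.232 and 0.355 in the control group and between 0.0985 and 0.124 after rutaecarpine, while LAMB1 lies between 0.901 and 0.944 in the control group and between 0.963 and 1.21 after rutaecarpine.

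The order of the chains by mean TPM in the control group was LAMB2, LAMA5, LAMC1, LAMB1, LAMB3, LAMA4, LAMA3, LAMA1 and LAMA2. The ranges of LAMA5 and LAMC1 overlapped, as did those of LAMC1 and LAMB1, and the control ranges of the other neighbours did not overlap. After rutaecarpine, LAMA4 was no longer apart from LAMA1, as its lowest library had 4.53 TPM and the highest LAMA1 library 6.10 TPM. The ranges of LAMB1 and LAMC1 and those of LAMA1 and LAMA3 also overlapped in the rutaecarpine group.

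The genes whose pattern over the 6 libraries was most like that of LAMA4 were sought by the root mean square difference of log2(TPM + 1), each gene centred on its own mean. They were LINC01551, a non-coding RNA (0.176), HRAT17, also non-coding (0.182), ITGA10, the alpha subunit of a collagen-binding integrin (0.204), CCN2, a matricellular growth factor (0.205), and CFI, the complement factor I protease (0.207). CCN2 had 17.52, 16.08 and 13.98 TPM in the control libraries and 5.25, 4.42 and 5.45 TPM after rutaecarpine. ITGA10 had 5.98, 4.13 and 3.77 TPM in the control libraries and 1.49, 0.64 and 1.69 TPM after rutaecarpine, with rutaecarpine replicate 2 lowest as for LAMA4. The genes most like LAMB2 were BOLA3, CPSF1, TMEM62, TRAF2 and DENND6B, at 0.0386 to 0.0459. The 6 points of each gene fall into the same 2 groups of libraries, so the likeness is a description with no test.

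Of the 37 tested genes in the lists of laminin receptors, dystroglycan glycosylation, basement membrane, netrins and proteases, 10 were called, against 9.29% of all tested genes in either direction. These lists were chosen with earlier results of these data known, so the count is a description and not a test of the lists. Of the integrin subunits that bind laminin, ITGA7 and ITGA3 were called lower and none was called higher. Of the 7 subunits listed, 6 were tested, and ITGA6 was below the filter at 0.46 to 1.61 TPM. ITGA7, the alpha subunit of the laminin receptor of muscle, had 157.5, 139.9 and 130.2 TPM in the control libraries and 61.91, 61.68 and 66.49 TPM after rutaecarpine. Its log2 fold change was -1.15 (SE 0.10, limma adjusted p = 0.000962), the size of a DEG. ITGA3, the alpha subunit of the receptor for laminins with the alpha 3 and alpha 5 chains, had 415.7 to 491.7 TPM after rutaecarpine against 716.9 to 735.5 TPM in the control libraries, with a log2 fold change of -0.68 (limma adjusted p = 0.00369). Both kept their calls with each library left out. ITGB1, the beta subunit that pairs with these alpha subunits, had 651.3, 636.0 and 309.6 TPM in control replicates 1, 2 and 3 and 547.4 to 592.2 TPM after rutaecarpine, and was not called. Its log2 fold change turned from 0.19 to -0.16 without control replicate 3 (limma adjusted p = 0.109). ITGA2 had 6.09 to 19.89 TPM in the control libraries and 23.07 to 39.27 TPM after rutaecarpine, with a log2 fold change of 1.24 that did not pass the test (limma adjusted p = 0.137), and of 0.73 without control replicate 3.

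Of the 6 non-integrin receptors, all were tested, 3 were called lower and none was called higher. BCAM, a surface glycoprotein that binds the laminin alpha 5 chain, had 8.92, 8.63 and 9.69 TPM in the control libraries and 4.13, 3.54 and 3.79 TPM after rutaecarpine (log2 fold change -1.06, limma adjusted p = 0.00606). SDC1, a heparan sulfate proteoglycan, had 48.93 to 50.22 TPM in the control libraries and 21.02 to 22.40 TPM after rutaecarpine (log2 fold change -1.16, limma adjusted p = 0.000755). SDC4 had 157.2 to 209.7 TPM in the control libraries and 119.3 to 129.7 TPM after rutaecarpine, with a log2 fold change of -0.57. The SDC4 call (limma adjusted p = 0.0289) was lost when any library but control replicate 3 was left out, with adjusted p up to 0.13. DAG1, which encodes dystroglycan, had 41.95 to 69.39 TPM in the control libraries and 41.63 to 58.73 TPM after rutaecarpine, and RPSA, the most abundant gene of this list, 1095 to 1292 and 1058 to 1119 TPM, and neither was called. The log2 fold change of DAG1 was -0.18 with all libraries and -0.42 without control replicate 3 (limma adjusted p = 0.0861). Of 12 genes of dystroglycan glycosylation, the sugar modification to which laminins bind, 10 were tested and none was called. The most abundant, POMGNT1, had 76.57 to 77.10 TPM in the control libraries and 79.04 to 86.79 TPM after rutaecarpine (limma adjusted p = 0.398).

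Of 15 other basement membrane genes, 8 were tested, and of these 2 were called lower and none was called higher, against 4.68% of all tested genes called lower. FBLN1, which encodes the matrix protein fibulin 1, was too low for the test, at 0.12 to 0.24 TPM in the control libraries and 0.74 to 1.74 TPM after rutaecarpine, with no overlap. COL15A1, a collagen of the basement membrane zone, had 27.02, 26.76 and 16.08 TPM in the control libraries and 8.47, 7.54 and 8.73 TPM after rutaecarpine (log2 fold change -1.36, limma adjusted p = 0.00995), and its adjusted p was 0.0544 without rutaecarpine replicate 2. SPARC, a collagen-binding matricellular protein and the most abundant gene of the list, had 440.8 to 568.0 TPM in the control libraries and 308.5 to 350.3 TPM after rutaecarpine (log2 fold change -0.63, limma adjusted p = 0.0155). The SPARC call was lost when any library but control replicate 3 was left out, with adjusted p up to 0.0734. NID2, a nidogen that binds the laminin gamma 1 chain, had 24.48 to 33.18 TPM in the control libraries and 16.90 to 24.96 TPM after rutaecarpine and was not called (limma adjusted p = 0.198), but was called lower without control replicate 3 (log2 fold change -0.57, limma adjusted p = 0.0488). AGRN had 103.3 to 121.0 TPM in the control libraries and 89.78 to 96.63 TPM after rutaecarpine, with no overlap. It was not called with all libraries (limma adjusted p = 0.116) but was called lower without control replicate 3 (log2 fold change -0.35, limma adjusted p = 0.0125). HSPG2, at 23.45 to 25.99 and 18.08 to 20.53 TPM, did not overlap either and was called in neither fit (limma adjusted p = 0.109 and 0.0628). COL4A1, a chain of the main basement membrane collagen, was at most 0.04 TPM. Of its other chains, COL4A5 had 6.78 to 13.69 TPM, COL4A2 2.71 to 6.11 TPM and COL4A6 1.92 to 3.42 TPM over all libraries, and none was called. COL4A3 and COL4A4 were at most 0.39 and 0.47 TPM.

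The netrins share the amino-terminal domain of laminins. Of 6 listed, 4 were tested, 1 was called higher and 1 lower. NTN4, which binds the laminin gamma 1 chain, had 2.43, 2.62 and 1.89 TPM in the control libraries and 5.98, 6.92 and 9.29 TPM after rutaecarpine (log2 fold change 1.33, limma adjusted p = 0.00906). NTNG1, a membrane-anchored netrin, had 25.51, 25.42 and 18.68 TPM in the control libraries and 12.33, 10.80 and 12.77 TPM after rutaecarpine (log2 fold change -0.89, limma adjusted p = 0.0168). The NTNG1 call was lost when any library but control replicate 3 was left out, with adjusted p up to 0.0756. NTN5 had 9.04, 1.2 and 3.83 TPM in the control libraries and 0.3, 0.42 and 0.86 TPM after rutaecarpine, with no overlap. Its log2 fold change of -1.65 (SE 0.51) did not pass the test (limma adjusted p = 0.101). Of the 5 proteases listed as cleaving laminin chains, 3 were tested and MMP14 alone was called, with a higher level. MMP14, a membrane-bound metalloproteinase, had 321.1, 341.6 and 275.7 TPM in the control libraries and 696.6, 627.5 and 677.5 TPM after rutaecarpine (log2 fold change 1.09, limma adjusted p = 0.00122), a call that held with each library left out. MMP2, the most abundant of them at 1534 to 1947 TPM over the 6 libraries, and BMP1 were not called.

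**Figure D5:**
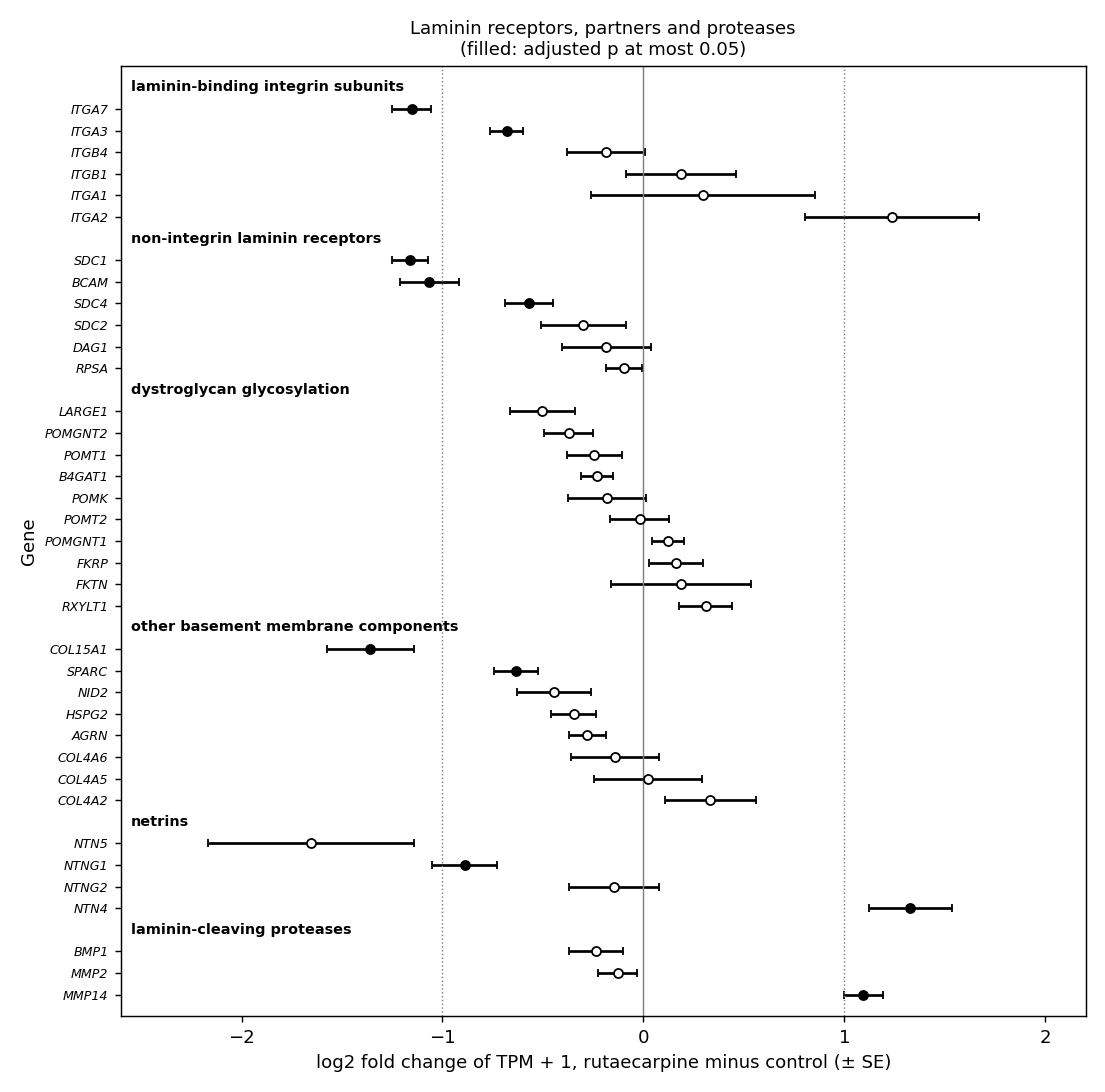
Log2 fold change of TPM + 1 (rutaecarpine minus control, ± standard error) of the tested laminin receptors, dystroglycan-modifying enzymes, basement membrane genes, netrins and proteases, with filled symbols for an adjusted p of at most 0.05 and dotted lines at 1 and -1. ITGA7, SDC1, BCAM and COL15A1 are filled and below -1, and NTN4 and MMP14 are filled and above 1.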

How the data were processed

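Total RNA of U87 cells in 3 control and 3 rutaecarpine samples was sequenced by the authors on an Illumina NovaSeq, and gene abundance was estimated with RSEM. The deposited values are TPM, with 1 column per library, matched to a sample by its label, and 0 columns were left unmatched. The submitters' processing notes name RSEM, DESeq2 and edgeR and the build GRCh38.p13, and the aligner and annotation release are not given in the sources used here. TPM keep no read numbers, so depth is unknown.

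The log2(TPM + 1) values of genes reaching 1 TPM in 3 or more libraries were compared with limma 3.58.1 in R 4.3.3 (empirical Bayes with a mean-variance trend, two-sided, Benjamini-Hochberg adjustment over 14377 genes). Fold changes on this scale understate the change of weakly expressed genes. The limits for DEGs were those of the study's methods, an adjusted p no higher than 0.05 with a log2 fold change beyond 1 or -1. In simulated data with 5 sets of 14377 genes and 200 genes changed by 1.5 on the log2 scale in each, 89.8% were recovered. A mean of 8.6 unchanged genes per set was called. The noise of these sets was taken from the libraries without control replicate 3, so recovery in the fit with all 6 libraries may be lower. Transcript length, GC content and positions came from GENCODE release 29 (GRCh38) and promoter windows from RefSeq (GRCh38.p14). The table leaves 35671 of 60671 genes without a name, which were looked up by Ensembl identifier where a name existed. The 14 alternatives changed the scaling, filter, pseudocount, weights, block or limma trend, removed the length and GC trend, or left out a library. The length and GC trend was removed per library with natural splines of 5 degrees of freedom on 14267 genes. The members and gene lists were chosen with earlier results of these data known. Named are all 9 members, LAMB4 and LAMC3, called or most abundant genes of the lists, genes named after their values were seen (ITGA2, ITGA6, ITGB1, DAG1, NID2, COL4A1, FBLN1, NTN5, BMP1), and the 5 genes most like LAMA4 and LAMB2. A result that falls under the rule is not reported here.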

Additional observations from a re-analysis of the deposited data

How the results depend on the processing

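The call of LAMA4 as a DEG was kept in all 14 alternatives, with log2 fold changes between -1.85 and -1.46 and adjusted p between 0.000228 and 0.0305 from limma. The log2 fold change of LAMB3 ranged from -0.14 to 0.092 when single libraries were dropped, and was above 0 without control replicate 2 alone. The number of laminin chains called lower at an adjusted p of at most 0.05 was 1 with all libraries, 4 with library weights (limma's arrayWeights, 14.1% of all tested genes called lower against 4.68% unweighted) and 4 with the length and GC trend removed, and 1 to 4 when single libraries were dropped, the highest without control replicate 3. LAMA1, LAMA2, LAMA3, LAMB2 and LAMB3 were called in none of the alternatives, and LAMA2 could not be tested with a TPM of at least 1 required in every library. The LAMA4 to LAMC1 difference in mean log2 ratio ranged from -1.47 to -1.16 when each library was left out.

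Over the whole table, 1335 of 14377 genes were called with all libraries, 3962 with library weights, 2985 with the length and GC trend removed, and 539 to 2666 when each library was left out, the highest without control replicate 3. DEGs numbered 289 higher and 216 lower with all libraries, and 251 higher and 295 lower with the libraries centred on their medians, which moved the median log2 fold change from 0.08 to -0.01. Of the 37 tested genes in the receptor, dystroglycan glycosylation, matrix, netrin and protease lists, 10 were called with all libraries, 19 with library weights and 6 to 15 when each library was left out. With the replicate number as a block (replicate block), 428 genes were called, 318 were DEGs and 4 of the 37 listed genes were called, and LAMA4 had an adjusted p of 0.0305 from limma. BCAM, SDC4, COL15A1, SPARC, NTN4 and NTNG1 were not called in that fit, with adjusted p from 0.0557 to 0.0937. The labels do not say that the numbers mark a shared culture, and the deviations of same-numbered libraries from their group means correlated across genes at 0.116, -0.266 and -0.215, so not every pair deviated together. Because TPM keep no read numbers, the counting error of the weakly expressed chains LAMA1, LAMA2 and LAMA3 cannot be given. The causes of these shifts were not tested.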
